A study of Danio rerio with 6 samples.

Results

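The genes described here encode Wnt ligands, the proteins that secrete and receive them, the inhibitors that hold them back, and the genes they switch on. They are the 48 rows, of 11218 in the deposited table, whose gene symbols begin with or equal the names of these families: Wnt, Frizzled, Lrp5 and Lrp6, Reck, Adgra2, Ror, Ryk, Dishevelled, Axin, Apc, Gsk3b, beta-catenin, Lef1, Tcf7, Sp5, Naked, Dickkopf, Sfrp, Notum, Wif1, Porcupine and Wls. Rows were picked by symbol and not by value, but the families were chosen with earlier results of these data known. Of the 48 genes, 38 had a mean value of at least 5 over the 6 libraries and were tested, and 10 fell under that filter.

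Wnt proteins are secreted ligands that carry a lipid, which the acyltransferase Porcupine attaches and which the carrier Wls needs in order to bring them to the cell surface. On the receiving cell they bind a Frizzled receptor together with Lrp5 or Lrp6, Dishevelled is recruited, and the destruction complex of Axin, Apc and Gsk3 no longer marks beta-catenin for breakdown, so that beta-catenin joins Tcf and Lef factors on DNA. Ror and Ryk receptors serve branches that do not need beta-catenin. In the embryonic brain, ligands of the Wnt7 type made by neural progenitors act on endothelial cells through Frizzled, Reck and the adhesion receptor Adgra2 (Gpr124), and this signal is known for guiding vessels into the brain and for building the blood-brain barrier.

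The cells came from heads of zebrafish (Danio rerio) at 48 hours post fertilization, of scarb2a mutants and of their wild type siblings. scarb2a encodes a homologue of LIMP-2, a membrane protein of lysosomes, and the labels do not give the mutant allele. Fish of both genotypes carried a bacterial artificial chromosome transgene, spelled TgBAC(scar2ba:KalTA4; UAS-mKate2) in the design text, and sorted cells are labelled scarb2a+ by its red fluorescent reporter. For each library 50 heads were pooled and 5000 live reporter-positive cells were sorted. The labels call the 3 libraries of a genotype biological replicates and number them mutant 1, 2 and 3 and wild type 1, 3 and 4. The series asked how a failing endolysosomal system in radial glia bears on vessels and barrier of the brain.

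The values are normalized counts of 3′ tags, from 1560238 to 2086990 recovered counts per library. scarb2a was listed at 1.0, 5.9 and 4.5 in mutants 1, 2 and 3, against 3.5, 2.2 and 1.6 in wild type 1, 3 and 4. These values rest on 12 counts in mutants and 7 in wild type, so that the targeted gene checks neither the genotype labels nor the sort. Of 9647 genes tested, 1053 were higher and 820 lower in mutants at a limma adjusted p below 0.05, which is what "called" means below. With all libraries scaled to the same total the split was 796 higher and 1305 lower. Because these are bulk samples of sorted cells, fewer cells of a type and less RNA per cell cannot be told apart.

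Of the tested genes, 2 of 4 Wnt ligands, 7 of 12 receptors and 3 of 4 secreted inhibitors were higher in mutants. Of 6 tested feedback targets, which Wnt signalling switches on, 2 of the Sp5 family were lower and 4 were not called. Of 16 other tested genes known as Wnt targets in some tissue, 7 were called higher and 0 lower. Among the 38 tested genes 16 were called higher and 2 lower, where 10.9% of all tested genes were called higher and 8.5% lower. Their median log2 difference, mutant minus wild type, was 0.61, beside -0.01 over all genes tested. In 21 of the 38 genes every mutant library lay above every wild type library, and in 4 every one lay below, where the shares over all tested genes were 17.9% and 16.7%. The groups did not overlap for any of the 18 called genes. A call already favours genes with separate groups, so this is no independent evidence. With equal totals the split of the Wnt genes was 10 higher and 3 lower, with a median of 0.5 beside -0.12 over all genes. Of the 38 genes, 5 had a mean under 5 in wild type only and so passed the filter through their mutant values. Of these 5, 2 were called, wnt5b and ror1.

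**Figure D1:**
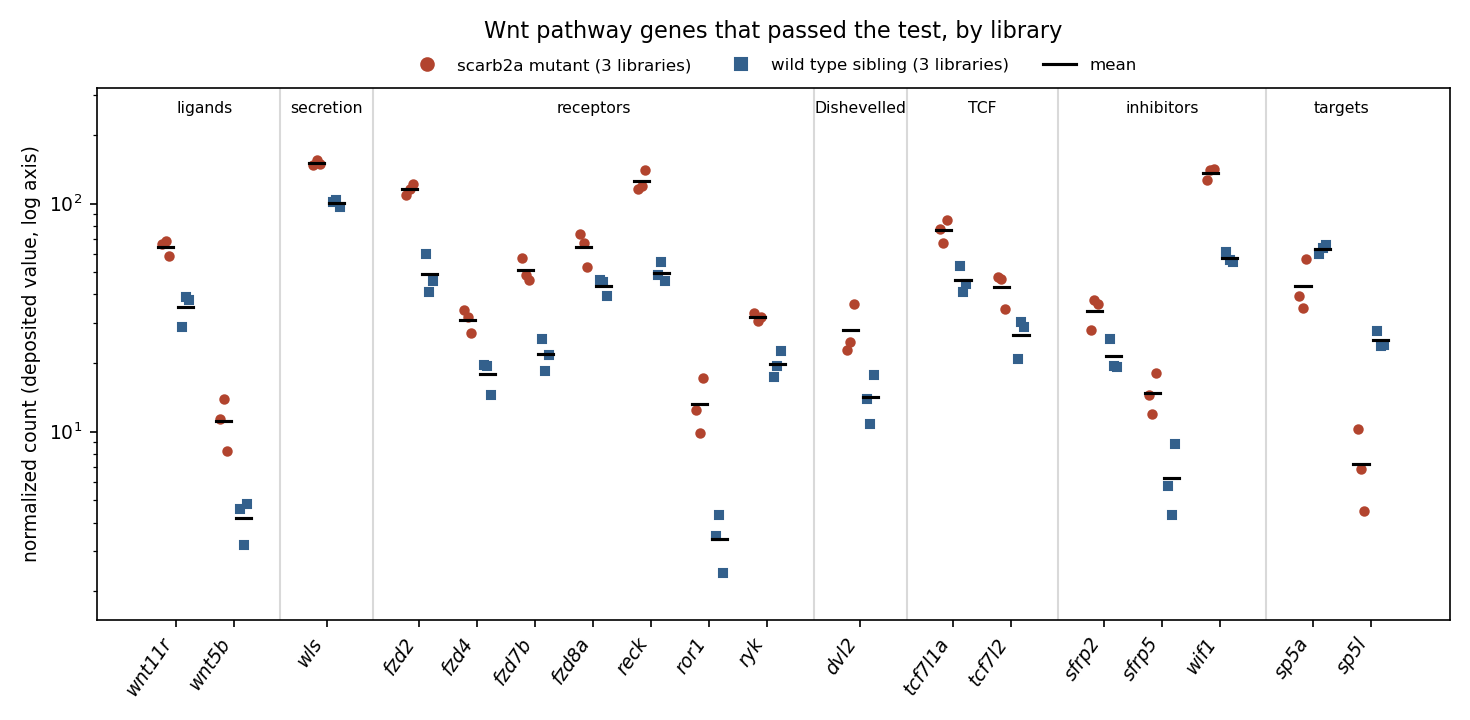
Normalized counts (deposited values, log axis) of the 18 called Wnt pathway genes, 1 point per library with mutant circles left of wild type squares and a bar at the mean of 3 libraries. The mutant libraries lie above the wild type libraries for 16 genes and below them for sp5a and sp5l.

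Of the 4 tested ligands, wnt11r and wnt5b were higher in mutants, and the other 2 were not called. wnt5b, wnt9a and wnt4a had wild type means of 4.2, 2.77 and 4.6, under 5, and passed the filter only through their mutant values. wnt11r, which RefSeq lists as wnt11 and which is known for shaping muscle and heart in fish, had 66.2, 68.4 and 58.9 normalized counts in mutants 1, 2 and 3 and 28.9, 39.0 and 37.8 in wild type 1, 3 and 4. All 3 mutant libraries lay above all 3 wild type libraries. The means were 64.5 ± 4.97 in mutants and 35.2 ± 5.52 in wild type (SD, n = 3 each), a log2 difference of 0.86 ± 0.171 (SE, limma adjusted p = 0.00121). wnt5b, a ligand best known for cell movements in the gastrula, had 11.4, 13.9 and 8.2 in mutants 1, 2 and 3 and 4.6, 3.2 and 4.8 in wild type 1, 3 and 4. The groups stood apart here too, but at low counts, 34 in mutants and 13 in wild type. The log2 difference was 1.21 ± 0.407 (SE, limma adjusted p = 0.0423).

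The call of wnt5b was lost when any single library was left out, with limma adjusted p values from 0.0518 to 0.179, so the ligands then had 1 called gene in place of 2. wnt9a, a ligand known in zebrafish for its part in the making of blood stem cells, had 7.2, 4.0 and 10.9 in mutants 1, 2 and 3, against 3.5, 3.2 and 1.6 in wild type 1, 3 and 4. It was not called although the groups did not overlap (95% interval of the log2 difference 0.03 to 2.18, limma adjusted p = 0.148). wnt4a was not called either, with groups that overlapped (log2 difference 0.31, limma adjusted p = 0.729).

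Among the Wnt7 ligands only wnt7bb was analysed here, and it was barely detected. wnt7bb had 8.3, 3.0 and 2.7 in mutants 1, 2 and 3 and 5.8, 2.2 and 4.0 in wild type 1, 3 and 4. The groups overlapped, the values rest on 14 counts in mutants and 12 in wild type, and the ratio of these counts after scaling was 1.15 with an exact 95% interval of 0.492 to 2.71 that covers counting error only. At this depth the counts are compatible with any ratio within that interval. No row bore the name wnt7aa, wnt7ab or wnt7ba, so these genes could not be analysed here. The last ligand, listed as wnt4b_1, had 1.0, 2.0 and 0.9 in mutants 1, 2 and 3 and 3.5, 9.7 and 3.2 in wild type 1, 3 and 4, from 4 counts in mutants and 16 in wild type. It lay under the filter, and without the filter its limma adjusted p was 0.138.

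Of the genes that ready a Wnt protein for release, the carrier wls was higher in mutants. Its values were 148.0, 155.5 and 148.7 in mutants 1, 2 and 3 and 101.6, 103.9 and 96.4 in wild type 1, 3 and 4. The libraries of each genotype lay close together and the groups were well apart, at means of 150.7 ± 4.14 in mutants and 100.6 ± 3.84 in wild type (SD, n = 3 each). The log2 difference was 0.58 ± 0.11 (SE, limma adjusted p = 8.27e-04). The table lists Porcupine under both porcn and porcnl. porcn had 20.7, 27.7 and 20.9 in mutants 1, 2 and 3 and 36.9, 42.2 and 28.9 in wild type 1, 3 and 4. porcnl had 20.7, 31.7 and 23.6 in mutants 1, 2 and 3 and 15.0, 18.4 and 12 in wild type 1, 3 and 4.

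The mutant libraries thus lay below all wild type libraries for porcn and above them for porcnl. Neither gene was called, at limma adjusted p values of 0.0574 for porcn and 0.0698 for porcnl. porcn was called lower with equal totals, without mutant 2 and without wild type 4. How the authors divided reads between these similar genes is not stated, so both values are uncertain. Their sum was 48.4 ± 9.62 in mutants and 51.1 ± 9.87 in wild type (SD, n = 3 each), which differ by less than the spread between libraries.

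Receptors held the largest number of called genes. Of 12 tested receptors 7 were called higher and 5 were not called, with a median log2 difference of 0.69. The Frizzled family gave 4 of the 7, fzd2, fzd7b, fzd4 and fzd8a, out of 8 tested. The summed value of all 13 receptor genes was 777.4, 737.0 and 736.1 in mutants 1, 2 and 3, against 521.8, 489.2 and 490.0 in wild type 1, 3 and 4. That is 0.0387 to 0.0409% of the counts in mutant libraries and 0.0283 to 0.0292% in wild type libraries. The number of receptors called was 4 without mutant 1 or without mutant 2, and 5 without mutant 3, wild type 3 or wild type 4. It was 6 without wild type 1 and 5 with equal totals.

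reck, a membrane protein tethered by a lipid anchor and the partner of Adgra2 in sensing Wnt7 ligands, had 115.9, 119.9 and 139.6 in mutants 1, 2 and 3 and 48.5, 55.2 and 45.8 in wild type 1, 3 and 4. Every mutant library was more than 2 times as high as every wild type library. The means were 125.1 ± 12.7 in mutants and 49.8 ± 4.84 in wild type (SD, n = 3 each), a log2 difference of 1.31 ± 0.138 (SE, limma adjusted p = 9.19e-07). No row bore the name of its partner adgra2, which could not be analysed here. The co-receptor lrp5 had 6.2, 7.9 and 7.3 in mutants 1, 2 and 3 and 5.8, 3.2 and 3.2 in wild type 1, 3 and 4. The groups lay close without overlap, on 22 counts in mutants and 12 in wild type, and the gene was not called (log2 difference 0.72 ± 0.449, SE, limma adjusted p = 0.301). With a wild type mean of 4.07, lrp5 passed the filter only through its mutant values. lrp6 had no row of that name and could not be analysed here.

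fzd2 had 108.7, 115.9 and 121.5 in mutants 1, 2 and 3 and 60.0, 41.1 and 45.8 in wild type 1, 3 and 4. The means of this Frizzled gene were 115.4 ± 6.42 in mutants and 49.0 ± 9.84 in wild type (SD, n = 3 each), a log2 difference of 1.24 ± 0.151 (SE, limma adjusted p = 7.11e-06). fzd7b, another receptor of the family, had 58.0, 48.5 and 46.2 in mutants 1, 2 and 3 and 25.4, 18.4 and 21.7 in wild type 1, 3 and 4. In both genes the lowest mutant library stood far above the highest wild type library. The log2 difference of fzd7b was 1.19 ± 0.199 (SE, limma adjusted p = 2.54e-04). fzd2, fzd7b and reck were called under every alternative that was run.

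fzd4, a Frizzled known from mammals for vessels of the retina and brain, had 34.2, 31.7 and 27.2 in mutants 1, 2 and 3 and 19.6, 19.5 and 14.5 in wild type 1, 3 and 4. No mutant library overlapped a wild type one, at a log2 difference of 0.77 ± 0.232 (SE, limma adjusted p = 0.0243). Without mutant 1, mutant 2 or wild type 4 the limma adjusted p was 0.0922, 0.0722 or 0.0963. fzd8a, known for patterning the forebrain, had 73.5, 67.4 and 52.6 in mutants 1, 2 and 3 and 46.2, 45.5 and 39.4 in wild type 1, 3 and 4. Its groups did not overlap either, and its log2 difference was 0.54 ± 0.167 (SE, limma adjusted p = 0.0277). It lost its call without mutant 1, mutant 2, wild type 3 or wild type 4, with limma adjusted p values of 0.126, 0.0903, 0.0503 and 0.102.

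The other Frizzled genes were not called. fzd3a, a receptor known for guiding axons, was at 246.2 ± 13.3 in mutants and 220.4 ± 5.32 in wild type (SD, n = 3 each, limma adjusted p = 0.263). fzd10 was at 41.9 ± 14.3 in mutants and 50.1 ± 4.56 in wild type, and mutant 3 alone lay low, at 25.4. fzd5 had 15 counts in mutants and 9 in wild type and was under the filter. fzd8b and a suffixed row, fzd8b_1, pointed in opposite directions without a call, with log2 differences of -0.57 and 0.57. Summed, these rows gave 18.7, 17.8 and 18.1 in mutants 1, 2 and 3 and 19.6, 16.2 and 16.8 in wild type 1, 3 and 4, with a log2 difference of 0.06 ± 0.255 (SE, limma adjusted p = 0.912).

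The Ror and Ryk receptors, known for branches that do not need beta-catenin, had 2 rows, ror1 and ryk. Both were called higher in mutants. No row bore the name ror2, which could not be analysed here. ror1, a receptor of tyrosine kinase type that binds Wnt5 ligands, had 12.4, 9.9 and 17.2 in mutants 1, 2 and 3 and 3.5, 4.3 and 2.4 in wild type 1, 3 and 4. The lowest mutant library was above all wild type libraries and the difference was the largest of the 12 tested receptors, at 1.68 ± 0.414 on the log2 scale (SE, limma adjusted p = 0.00703), on 41 counts in mutants and 10 in wild type. With a wild type mean of 3.4, ror1 passed the filter only through its mutant values. Its separation and its rank are thus not free of that selection. Without mutant 3 the limma adjusted p of ror1 was 0.0588. ryk, a Wnt receptor with a kinase domain that lacks activity, had 33.1, 30.7 and 31.7 in mutants 1, 2 and 3 and 17.3, 19.5 and 22.5 in wild type 1, 3 and 4. The mutant libraries lay close together and above all wild type libraries, at a log2 difference of 0.67 ± 0.218 (SE, limma adjusted p = 0.0368). Without mutant 1, mutant 2, mutant 3, wild type 1 or wild type 3 the limma adjusted p of ryk was 0.1, 0.0763, 0.0911, 0.106 or 0.0782.

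**Figure D2:**
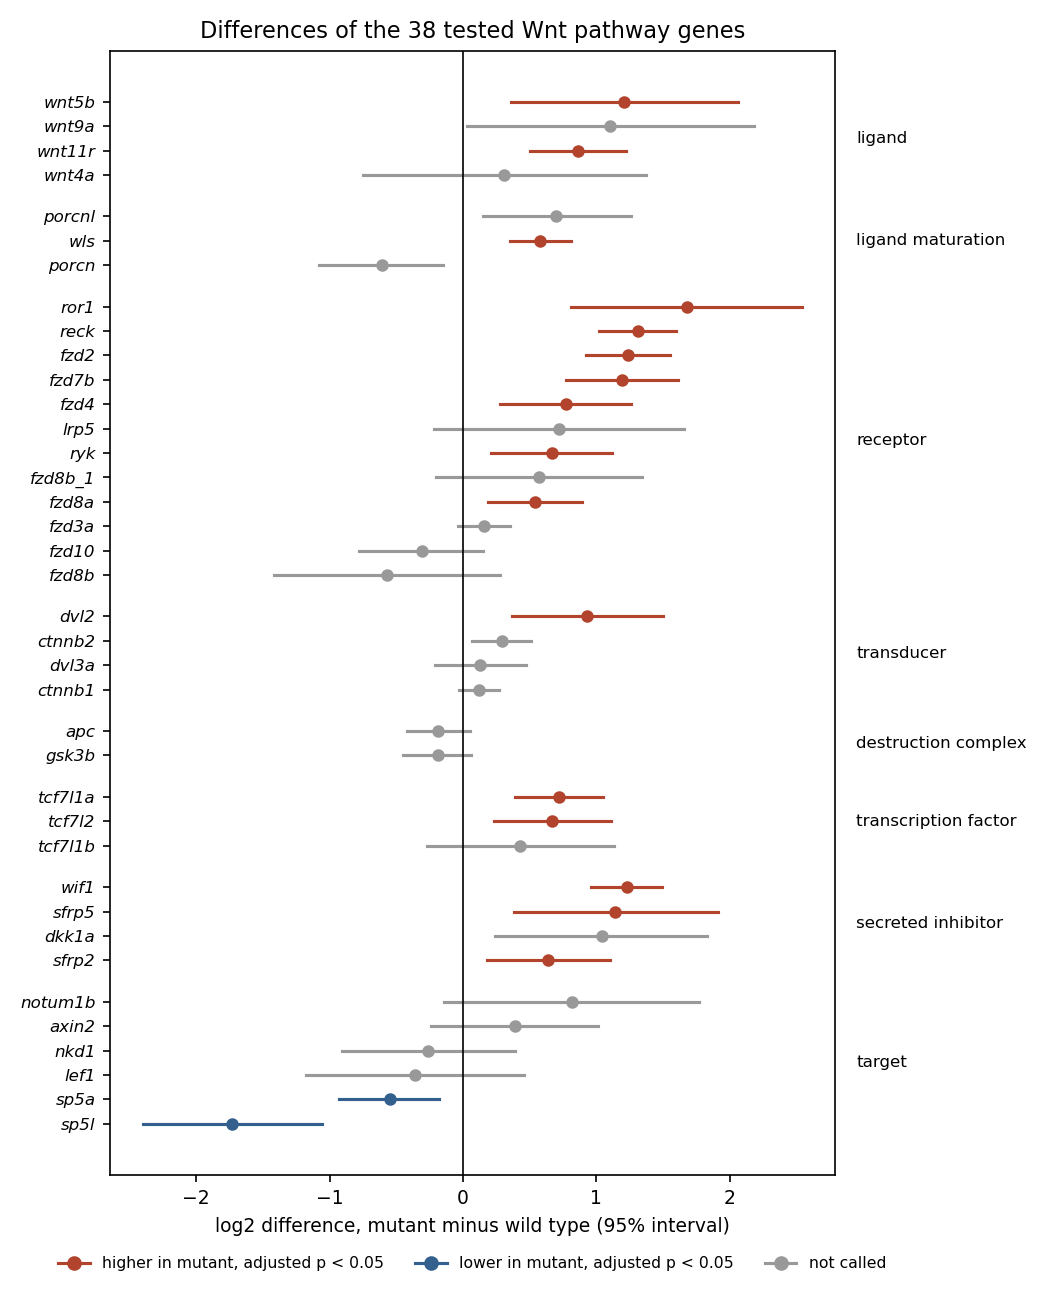
Log2 difference, mutant minus wild type, of the 38 tested Wnt pathway genes with its 95% interval from limma, grouped by role from ligands at the top to targets at the bottom. Red marks the 16 genes called higher, blue the 2 called lower, sp5a and sp5l, and grey the 20 not called.

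Of 4 tested transducers inside the cell 1 was called higher, dvl2, a Dishevelled protein that carries the signal from Frizzled into the cell. dvl2 had 22.8, 24.8 and 36.3 in mutants 1, 2 and 3 and 13.9, 10.8 and 17.7 in wild type 1, 3 and 4. Mutant 3 was highest and no library overlapped the other genotype, at a log2 difference of 0.93 ± 0.271 (SE, limma adjusted p = 0.0199). Without mutant 3 or wild type 3 the call was lost, with limma adjusted p values of 0.127 and 0.0811. dvl3a was at 64.1 ± 8.89 in mutants and 58.7 ± 9.67 in wild type (SD, n = 3 each), less than the spread between libraries. A row named dvl3, which RefSeq gives as an older name of dvl3a, had 11 counts in mutants and 1 in wild type and was under the filter.

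ctnnb1, one of the beta-catenin genes, had 1026.6, 1022.3 and 957.5 in mutants 1, 2 and 3 and 904.9, 962.4 and 899.6 in wild type 1, 3 and 4. The groups overlapped, and the log2 difference of 0.12 ± 0.0707 had a 95% interval of -0.03 to 0.27 (SE, limma adjusted p = 0.269). The other beta-catenin gene, ctnnb2, had a log2 difference of 0.29 ± 0.106 (SE, limma adjusted p = 0.0638). The 2 tested genes of the destruction complex were not called. apc, its scaffold, was at 140.9 ± 14.8 in mutants and 160.0 ± 8.71 in wild type (SD, n = 3 each, limma adjusted p = 0.277). gsk3b, its kinase, was at 86.5 ± 1.99 in mutants and 99.2 ± 4.96 in wild type, without overlap between the groups (SD, n = 3 each, limma adjusted p = 0.299). axin1 had 8 counts in mutants and 9 in wild type, too few to test.

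Of the 3 tested Tcf factors, through which beta-catenin acts on DNA, 2 were called higher. lef1, a factor of the same kind, is given with the targets and was not called. tcf7l1a, known in zebrafish as the repressor of Wnt targets that the forebrain needs, had 77.6, 67.4 and 84.3 in mutants 1, 2 and 3 and 53.1, 41.1 and 44.2 in wild type 1, 3 and 4. Again the groups were apart, and the log2 difference was 0.72 ± 0.157 (SE, limma adjusted p = 0.00281). tcf7l2, a close relative expressed in the diencephalon, had 47.6, 46.6 and 34.5 in mutants 1, 2 and 3 and 20.8, 30.3 and 28.9 in wild type 1, 3 and 4. Here too the groups stood apart, at a log2 difference of 0.67 ± 0.21 (SE, limma adjusted p = 0.0305). Without mutant 1, mutant 2 or wild type 1 the call of tcf7l2 was lost, with limma adjusted p values of 0.116, 0.107 and 0.121. tcf7l1b had a log2 difference of 0.43 and was not called (limma adjusted p = 0.42).

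Secreted inhibitors were higher in mutants as well. Of 4 tested, wif1, sfrp5 and sfrp2 were called higher and dkk1a was not called, with a median log2 difference of 1.09, and in all 4 the mutant libraries lay above the wild type libraries. The summed value of all 8 inhibitor genes was 195.5, 225.9 and 242.0 in mutants 1, 2 and 3, against 102.9, 92.0 and 95.5 in wild type 1, 3 and 4. That is 0.0103 to 0.0133% of the counts in mutant libraries and 0.00531 to 0.0057% in wild type libraries. The number called was 1 without mutant 3 or without wild type 3, 1 with equal totals, and 2 without any of the other 4 libraries.

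wif1, which binds Wnt proteins outside the cell, had 126.3, 140.7 and 142.3 in mutants 1, 2 and 3 and 61.2, 56.3 and 55.4 in wild type 1, 3 and 4. Libraries of 1 genotype lay close together and the lowest mutant library had more than 2 times the value of the highest wild type library. The means were 136.4 ± 8.81 in mutants and 57.6 ± 3.12 in wild type (SD, n = 3 each), a log2 difference of 1.23 ± 0.126 (SE, limma adjusted p = 7.16e-07). wif1 was called under every alternative that was run, and had the smallest p of the 38 genes.

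The Sfrp proteins resemble the part of Frizzled that binds Wnt and hold the ligand outside the cell. sfrp5 had 14.5, 11.9 and 18.1 in mutants 1, 2 and 3 and 5.8, 4.3 and 8.8 in wild type 1, 3 and 4. The groups did not overlap, at a log2 difference of 1.14 ± 0.365 (SE, limma adjusted p = 0.0325), but without mutant 1, mutant 3, wild type 1 or wild type 3 the limma adjusted p was 0.0826, 0.142, 0.0611 or 0.107. sfrp2 had 27.9, 37.6 and 36.3 in mutants 1, 2 and 3 and 25.4, 19.5 and 19.3 in wild type 1, 3 and 4. The gap between mutant 1 and wild type 1 was small, and the log2 difference was 0.64 ± 0.222 (SE, limma adjusted p = 0.049). The call of sfrp2 was lost without mutant 2, mutant 3, wild type 3 or wild type 4, with limma adjusted p values of 0.163, 0.149, 0.129 and 0.133.

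A suffixed row, sfrp2_1, had 25 counts in mutants and 4 in wild type and was under the filter. Added to sfrp2 it gave 31.0, 49.5 and 45.4 in mutants 1, 2 and 3 and 25.4, 20.6 and 21.7 in wild type 1, 3 and 4, with a log2 difference of 0.84 ± 0.219 (SE, limma adjusted p = 0.00968). This sum was chosen after the values had been seen. sfrp1a, also under the filter, had 12 counts in mutants and 3 in wild type, a ratio after scaling of 3.93. Its exact 95% interval of 1.06 to 21.7 covers counting error only. Without the filter sfrp1a was not called (limma adjusted p = 0.218).

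The Dickkopf proteins include inhibitors that bind Lrp5 and Lrp6. dkk1a had 10.3, 10.9 and 15.4 in mutants 1, 2 and 3 and 5.8, 6.5 and 4.0 in wild type 1, 3 and 4. The groups did not overlap, but the gene was not called (log2 difference 1.04 ± 0.379, SE, limma adjusted p = 0.0621). dkk3b, a diverged relative, had 6.2, 8.9 and 9.1 in mutants 1, 2 and 3 and 1.2, 0 and 2.4 in wild type 1, 3 and 4. These 25 counts in mutants and 4 in wild type put it under the filter. Without the filter, where 9.65% of all genes were called higher, it was called at a limma adjusted p of 0.0116, and so was sfrp2_1 at 0.0262. Every deposited gene reached at least 6 counts in some library. dkk3b and sfrp2_1, with 4 counts each over the wild type libraries, did so only in mutants. These calls are thus not free of selection by mutant values. dkk2 had 12 counts in mutants and 8 in wild type.

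The feedback targets, genes that Wnt signalling switches on in many tissues, gave both of the Wnt genes called lower. Each gene was given a single role, although roles can overlap, and the medians by role depend on this grouping. notum1b, which acts on Wnt proteins, was counted here and not with the secreted inhibitors. Of 6 tested, sp5l and sp5a were called lower and 4 were not called, with a median log2 difference of -0.31. Their summed value, with sp5b, was 104.4, 100.1 and 110.6 in mutants 1, 2 and 3, against 145.4, 134.3 and 136.6 in wild type 1, 3 and 4. The counts behind these sums were 0.00526 to 0.00607% of the mutant libraries and 0.00775 to 0.00815% of the wild type libraries. The lower sums came from sp5a and sp5l, with means of 43.7 and 7.23 in mutants and 63.3 and 25.2 in wild type. Of the others, axin2 and notum1b had higher means in mutants and lef1, nkd1 and sp5b lower ones. The sums thus do not show that the targets fell as a group.

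sp5l, a zinc finger factor of the Sp family that acts below Wnt signals in zebrafish embryos, had 10.3, 6.9 and 4.5 in mutants 1, 2 and 3 and 27.7, 23.8 and 24.1 in wild type 1, 3 and 4. Every mutant library was below every wild type library, by a wide margin. The means were 7.23 ± 2.91 in mutants and 25.2 ± 2.17 in wild type (SD, n = 3 each), from 22 and 76 counts, and the log2 difference was -1.73 ± 0.32 (SE, limma adjusted p = 6.52e-04). It was called lower under all 16 alternatives that tested it, and a filter at a mean of 20 left it out. sp5a, of the same family, had 39.3, 34.7 and 57.1 in mutants 1, 2 and 3 and 60.0, 63.9 and 65.9 in wild type 1, 3 and 4. Mutant 3 lay close to the wild type libraries, which stood together, and the log2 difference was -0.55 ± 0.18 (SE, limma adjusted p = 0.0362). Without mutant 1, mutant 2, wild type 1, wild type 3 or wild type 4 the call of sp5a was lost, with limma adjusted p values of 0.111, 0.159, 0.0531, 0.0932 and 0.111. With all 6 libraries it was also lost in edgeR (edgeR adjusted p = 0.0599) and in DESeq2 (DESeq2 adjusted p = 0.215). The same held for limma without a trend and limma with a replicate block (limma adjusted p = 0.139 and 0.257).

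The targets most often read as reporters of the pathway were not called, and they did not share a direction. axin2, which feeds back on the destruction complex, had 21.7, 19.8 and 11.8 in mutants 1, 2 and 3 and 11.5, 13.0 and 14.5 in wild type 1, 3 and 4. Mutants 1 and 2 were above all wild type libraries and mutant 3 was among them, so that the log2 difference of 0.39 ± 0.3 had a 95% interval of -0.24 to 1.01 (SE, limma adjusted p = 0.418). lef1, a partner of beta-catenin on DNA, had 6.2, 5.0 and 10.0 in mutants 1, 2 and 3 and 10.4, 9.7 and 7.2 in wild type 1, 3 and 4. Its groups overlapped, at a log2 difference of -0.36 ± 0.392 (SE, limma adjusted p = 0.582).

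nkd1, which dampens the signal at Dishevelled, had 15.5, 20.8 and 9.1 in mutants 1, 2 and 3 and 18.5, 19.5 and 14.5 in wild type 1, 3 and 4. The wild type libraries lay within the span of the mutant ones. Its log2 difference was -0.26 ± 0.31 (SE, limma adjusted p = 0.625), and it was 0.05 without mutant 3. notum1b, an enzyme that removes the lipid from Wnt proteins, had a log2 difference of 0.82 ± 0.456 (SE, limma adjusted p = 0.237) with overlapping groups. sp5b, under the filter, had 11 counts in mutants and 13 in wild type.

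**Figure D3:**
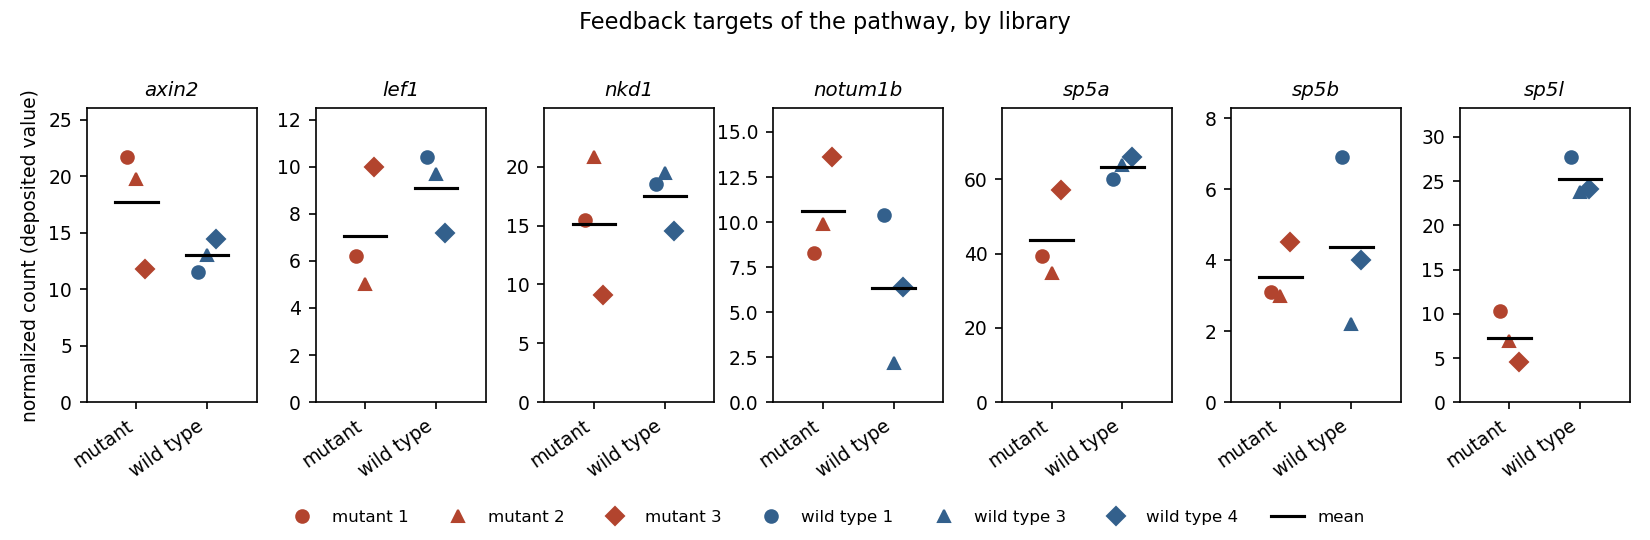
Normalized counts (deposited values, linear axes from 0) of the 7 feedback targets, 1 point per library with a symbol for each and a bar at the mean of 3, mutants left of wild type. The groups are apart for sp5a and sp5l, where mutants are lower, and overlap for the other 5 genes.

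Lists of other pathway genes were read against the same shares over all genes, 10.9% called higher and 8.5% lower. Of 18 signal enhancers and genes of receptor turnover listed, 3 were tested and 1 was called, the R-spondin rspo3. It had 32.1, 54.5 and 24.5 in mutants 1, 2 and 3 and 23.1, 11.9 and 13.7 in wild type 1, 3 and 4, with a log2 difference of 1.12 ± 0.295 (SE, limma adjusted p = 0.0111). Mutant 2 stood high, and the limma adjusted p of rspo3 was 0.094 without mutant 2 and 0.0546 without wild type 3. Of 5 other tested inhibitors 2 were called higher and 3 were not called, with a median log2 difference of 0.25. sostdc1a, a secreted antagonist of Wnt and BMP signals, had 17.6, 21.8 and 20.9 in mutants 1, 2 and 3 and 1.2, 2.2 and 5.6 in wild type 1, 3 and 4. The groups were far apart, at a log2 difference of 2.55 ± 0.43 (SE, limma adjusted p = 2.67e-04). The wild type mean of sostdc1a, 3.0, was under 5, so the gene passed the filter only through its mutant mean of 20.1. trabd2a, known from frogs and human cells as an enzyme that cuts Wnt proteins, was at 25.0 ± 8.78 in mutants and 11.8 ± 3.93 in wild type (SD, n = 3 each, limma adjusted p = 0.0258), and lost its call without mutant 2, mutant 3, wild type 3 or wild type 4 (0.163, 0.0607, 0.0993 and 0.0743).

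Of 19 tested regulators of beta-catenin in the cytoplasm 1 was called higher, the casein kinase gene csnk1db (log2 difference 0.36, limma adjusted p = 0.0399), and 2 lower, with a median of -0.11. The 2 lower ones, ctnnbip1, which blocks beta-catenin from binding Tcf factors, and amer2, which binds Apc, had log2 differences of -0.30 and -0.45 (limma adjusted p = 0.0222 and 0.027). Leaving out mutant 1, wild type 3 or wild type 4 ended both of these calls, leaving out mutant 3 ended that of ctnnbip1 and leaving out mutant 2 that of amer2. In this list 1 gene was called higher without wild type 4 and 0 without any other library, and 3 were called lower without wild type 1. Of 20 tested nuclear co-factors 2 were called lower, also in every fit that left out 1 library, and 18 were not called. zgc:136336, which RefSeq lists as the Groucho-type co-repressor tle2c, was at 37.7 ± 6.82 in mutants and 80.2 ± 10.7 in wild type (SD, n = 3 each, limma adjusted p = 1.40e-04). The co-repressor ctbp2a was at 146.2 ± 10.5 in mutants and 218.8 ± 15.1 in wild type (SD, n = 3 each, limma adjusted p = 4.94e-04).

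Of 18 tested genes of planar polarity and other branches 2 were called higher and 1 lower. daam1a, a formin that acts below Dishevelled on the cell skeleton, was at 42.0 ± 1.39 in mutants and 82.1 ± 5.74 in wild type (SD, n = 3 each, log2 difference -0.95, limma adjusted p = 1.04e-04). nfatc4, a transcription factor that responds to calcium, had a log2 difference of 1.14 (limma adjusted p = 0.0138), with an adjusted p of 0.0841 without mutant 2. The other higher gene, named after its values were seen, was ptk7a, a membrane protein of planar polarity (0.91, limma adjusted p = 0.0302). The number called higher in this list was 0 without mutant 2, 1 without mutant 1 or wild type 1, and 3 without wild type 3. Of 16 other tested genes known as Wnt targets in some tissue, 7 were called higher and 9 were not called, with a median log2 difference of 0.43. dlx3b, a homeobox gene of sensory placodes, was at 113.1 ± 14.4 in mutants and 46.3 ± 11.6 in wild type (SD, n = 3 each, limma adjusted p = 1.98e-05). mycb, a Myc gene, was at 371.8 ± 10.1 in mutants and 244.8 ± 19.9 in wild type (SD, n = 3 each, limma adjusted p = 7.05e-05).

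**Figure D4:**
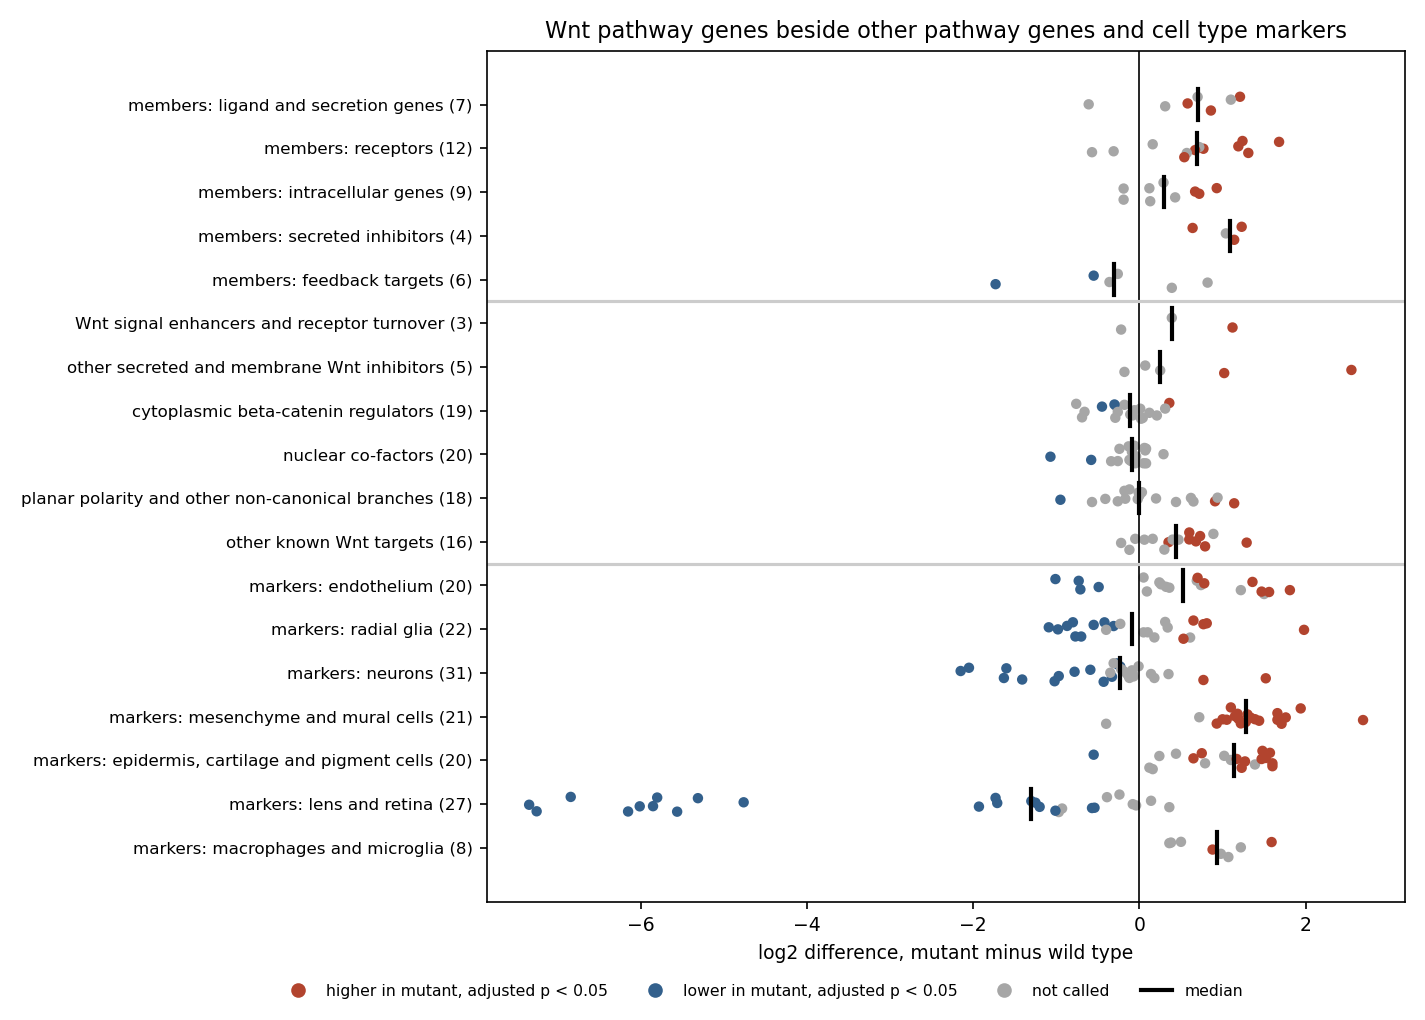
Log2 difference, mutant minus wild type, of each tested gene in the Wnt families by role (top), in lists of other pathway genes (middle) and in lists of cell type markers (bottom), with the number tested in brackets and a bar at the median. Red and blue points were called higher and lower. The medians are 0.69 for receptors, 1.09 for secreted inhibitors and -0.31 for feedback targets, beside 1.28 for mesenchyme and mural markers and -1.3 for lens and retina markers.

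Markers of cell types that the sort could hold also differed between the genotypes, and their part in the Wnt differences was not tested. Of 21 tested markers of mesenchyme and mural cells 19 were called higher and 2 were not called, with the smallest p for twist1a (log2 difference 1.76), foxc1b (1.66) and postnb (1.18), and their summed value was 4533.1 to 5251.5 in mutants and 1930.2 to 2366.1 in wild type. In 1 of these mesenchyme and mural markers every mutant library lay below every wild type library, and 1 was called lower with equal totals. Of 20 markers of epidermis, cartilage and pigment cells 11 were higher, with the smallest p for matn4, lect1 and pmela, and 1 lower, tfap2a, with sums of 7214.3 to 7838.1 in mutants and 3710.1 to 4944.6 in wild type. Of 27 markers of lens and retina 19 were lower and 8 were not called, among them the crystallins crygn2, cryba4 and cryba2b, with sums of 1643.7 to 1912.6 in mutants and 5453.9 to 6978.6 in wild type.

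Markers of radial glia, the cells that the series is about, split in both directions. Of 22 tested, 9 were lower, among them, by smallest p, cspg5a (-0.77), slc1a2b (-0.87) and mdkb (-0.70), and also fabp7a (-1.09) and gfap (-0.98), and 5 were higher, slc1a3a, cx43, aqp1a.1, ptgdsb.1 and qkia. Their sums were 6829.8 to 7248.2 in mutants and 8872.3 to 9539.4 in wild type. Leaving out mutant 2, mutant 3 or wild type 3 gave 3 radial glia markers called higher. Neuronal markers had 14 lower of 31, with the smallest p for neurod1 (-1.41), neurod6b and neurod4 (-0.97) and the largest differences for neurod6a (-2.15) and neurod2 (-2.05), and 2 higher, nefma and tbr1b, with sums of 12694.4 to 13204.2 in mutants and 15366.9 to 16421.1 in wild type. Markers of macrophages and microglia had 2 higher of 8, mfap4 (1.59) and ctss2.1 (0.88), with sums of 390.1 to 674.7 in mutants and 259.4 to 384.3 in wild type. The number of neuronal markers called higher was 0 without mutant 1 or wild type 3 and 1 without any other library, and that of macrophage markers was 1 without mutant 2, mutant 3 or wild type 4 and 3 without mutant 1.

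The endothelium, the tissue that Reck and Fzd4 are known for, gave markers in both directions. Of 20 tested, 6 were called higher and 4 lower, with a median of 0.53. The higher ones were fli1a (1.81), pecam1 (1.56), etv2 (1.47), clec14a (1.36), dll4 (0.78) and sox7 (0.70), and the lower ones cldn5b (-0.73), tal1 (-0.71), aplnrb (-0.49) and robo4 (-1.01). The sums, 579.5 to 609.5 in mutants and 526.0 to 588.5 in wild type, overlapped. kdrl, the Vegf receptor that marks these cells, had 10.3, 12.9 and 19.0 in mutants 1, 2 and 3 and 4.6, 2.2 and 12.9 in wild type 1, 3 and 4, and was not called (limma adjusted p = 0.0745). The number of endothelial markers called higher was 3 without wild type 3 and 4 without any mutant library, and that called lower was 2 without mutant 2. No marker of these 7 lists that had a row in the deposited table was at 0 in all libraries of a genotype. Listed markers without a row were not part of this count, and for endothelium 25 of 37 had a row.

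Of the 18 called Wnt genes, 8 were called in every alternative fit that tested them, wnt11r, wls, reck, fzd2, fzd7b, tcf7l1a and wif1 in all 17, and sp5l in 16, since its mean was under the filter of 20. The other 10 lost the call in at least 1 fit, and none of the 18 changed direction in any. Of these 10, ror1 lost it only without mutant 3, and all the others lost it in DESeq2 with all 6 libraries. Equal totals ended the calls of fzd8a, ryk, sfrp2, sfrp5, tcf7l2 and wnt5b. The replicate block ended those of fzd4, fzd8a, ryk, sfrp2, sp5a, tcf7l2 and wnt5b.

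**Figure D5:**
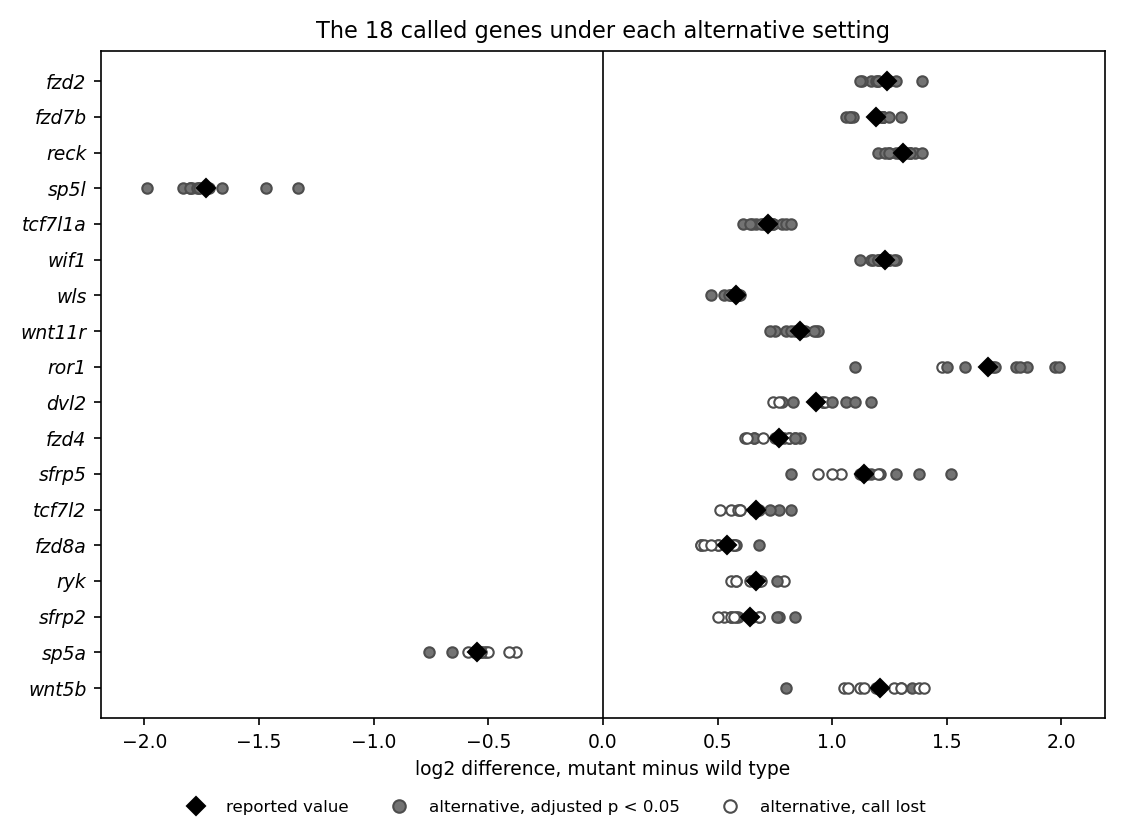
Log2 difference, mutant minus wild type, of the 18 called Wnt pathway genes as reported (diamonds) and under each alternative (circles, filled where the limma, edgeR or DESeq2 adjusted p was below 0.05 and open where the call was lost). The 8 genes at the top were called under every alternative that tested them (16 for sp5l, 17 for the other 7), and no point of any gene crosses 0.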

How the data were processed

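RNA of the sorted cells was sequenced by MARS-seq, adapted to bulk samples, per the labels' protocols; the method reads 3′ ends of transcripts. The submitters' processing notes name the build danRer11. Aligner and counter: not given in the sources used here. A single table was deposited by the authors, with 11218 genes and values that are a normalized signal. In 99.997% of its 67308 values, dividing by a factor for the library gave a whole count (tolerance 0.0505). Every gene reached at least 6 counts in some library.

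The exact intervals of count ratios cover counting error only. The intervals of log2 differences come from limma and rest on the spread between libraries. The labels do not say whether counts are reads or molecules. The test was limma 3.58.1 in R 4.3.3 on log2(value + 1), with a trended variance prior, genotype alone as the term and all 6 libraries, for genes with a mean value of at least 5. The Benjamini-Hochberg adjustment ran over 9647 genes, and adjusted p-values were held to a threshold of 0.05. Fold changes are on that log2 scale, which understates changes of low genes. No library is a duplicate: chi-square per degree of freedom was 6.47 to 9.41 between genotypes and 1.77 to 2.26 within them.

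The Wnt genes and all lists were chosen with earlier results of these data known. Values are given for every called gene and for a set of pathway genes named whatever their values, for the 2 called genes with the smallest p of each further pathway list, and for up to 3 of each marker list. Genes outside this rule are given by counts, or by values chosen after they were seen. RefSeq symbols, of another assembly (GRCz12tu), gave older names only, and matched all 48 genes. Alternatives were other pseudocounts, filters and scalings, limma without a trend, edgeR 4.0.16 and DESeq2 1.42.0 on these counts, leaving out single libraries, a replicate block and, added after the data had been seen, suffixed rows summed with their namesakes.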

Additional observations from a re-analysis of the deposited data

How the results depend on the processing

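Over all genes, DESeq2 called 622 higher and 409 lower in mutants, limma without a trend 578 and 429, and limma with equal totals 796 and 1305, against 1053 and 820 as reported. Of the Wnt genes, DESeq2 called 8 higher and 1 lower, equal totals 10 higher, and edgeR, limma without a trend and a mean of at least 20 each called 1 lower, against 16 and 2 as reported. Equal totals shifted the median of all genes from -0.01 to -0.12. The median log2 difference of the Wnt genes, 0.61 as reported, was 0.5 with equal totals, 0.51 with a pseudocount of 5 and 0.67 with suffixed rows summed. Leaving out 1 library gave 779 to 978 genes higher and 590 to 671 lower, 10 to 12 Wnt genes higher and 1 to 2 lower, and Wnt medians of 0.55 to 0.64. The lowest count of 10 came without mutant 1, mutant 3 or wild type 3.

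With a replicate block on the shared numbers, 1 and 3, the median of the Wnt genes was 0.46, with 11 called higher and 2 lower. Deviations of same-numbered libraries correlated by 0.0429 and -0.00952. So few pairs cannot decide whether these libraries share more than a number. One named Wnt gene turned its direction, nkd1, at 0.05 on the log2 scale without mutant 3 and -0.51 without mutant 2. The cause was not tested for any of these changes, apart from fewer genes or libraries where a fit left them out. Depth limits the 10 genes under the filter, wnt7bb among them.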
